A study of Mus musculus with 24 samples.

Results

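Wild-type organoids of the mouse small intestine, kept for 16 h with the CDK8 and CDK19 inhibitor Senexin B or with its solvent DMSO, were compared across all genes. The 6 libraries were chosen by their titles, 3 of DMSO and 3 of Senexin B at 16 h, out of 24 in the series. The study as a whole sequenced RNA of organoids without Cdk8, Cdk19 or both genes, and of wild-type organoids given the inhibitor for 16 or 24 h. The dose, 10 µM, is given in the paper's text and not in the labels. A growth protocol that the labels give for every sample names 7 days of 600 nM 4-hydroxytamoxifen, an agent that switches on an inducible Cre recombinase, and does not say whether the wild-type organoids of the inhibitor experiment received it. RNA was extracted with Trizol and RNeasy columns and sequenced at BGI, and the protocol calls the replicates biological triplicates. The labels name rRNA-depleted total RNA, whereas the protocol describes oligo(dT) beads. Genes of replication-dependent histones, whose mRNAs end without a poly(A) tail, held 0.004 to 0.008% of the counts at 16 h.

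CDK8 and CDK19 are closely related kinases that bind cyclin C and, with MED12 and MED13, form the kinase module of Mediator, the complex that links transcription factors at enhancers to RNA polymerase II. The module binds Mediator reversibly and is known to act on inducible programmes, among them the serum, hypoxia, interferon and Wnt responses. Intestinal organoids hold stem cells, Paneth cells, goblet cells, enteroendocrine cells, tuft cells and absorptive enterocytes, so that genes of each of these lineages can be read in the same RNA.

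The deposited tables give the number of reads per gene, and between 27075937 and 27925158 reads per library lay on genes at 16 h, which is 74.9 to 77.3% of all reads in a table. Counts were scaled to the mean effective library size of the 12 libraries of the inhibitor experiment and all counts of genes below are such normalised counts. A gene was called when the quasi-likelihood test of edgeR gave a Benjamini-Hochberg adjusted p under 0.05. A p-value here measures a difference between 3 and 3 libraries against the spread within the 4 groups of these 12 libraries. In such bulk samples, fewer cells of a type and less RNA per cell cannot be told apart.

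The first component of a principal component analysis held 39.6% of the variance and placed the DMSO libraries between −23.52 and −13.14 and the Senexin B libraries between 18.76 and 21.80. Both replicate 1 libraries stood apart on the second component, which held 25.0%. DMSO replicate 1 was at 28.93 and Senexin B replicate 1 at 14.43, while the other 4 libraries lay between −13.75 and −7.27. The labels do not say what the replicate numbers share, and the test was run both without and with the replicate number as a block.

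Epithelial identity was examined first. All 9 epithelial markers were measured, and their summed normalised counts were 318102, 266325 and 291948 in DMSO and 335178, 363955 and 352019 in Senexin B, of which the keratin gene Krt8 held 29.9%. Epcam, an adhesion protein of epithelia, had 36903, 35329 and 36276 counts in DMSO and 31108, 35236 and 32496 in Senexin B, and Cdx2, the master regulator of intestinal identity, had 10419, 8522 and 9233 counts in DMSO and 9091, 9007 and 8079 in Senexin B. The mesenchymal markers summed to at most 192 counts in a library, with Vim the most abundant and Col3a1, Dcn, Lum and Thy1 at 0 in every 16 h library. Of 16 immune markers 12 had counts, Kit held 92.9% of their sum of 1671 to 1953, and Cd3g, Cd4, Cd8a and Adgre1 were at 0. Endothelial markers summed to 57.8 to 95.1 counts, with Vwf the most abundant, and with Flt1 and Cldn5 at 0, and neural and glial markers to 115 to 179 counts, with S100b the most abundant and Sox10 and Uchl1 at 0. None of the 15 tested markers of these 4 cell types was called by edgeR, with 2 at an unadjusted p under 0.05, both neural, and DESeq2 called 0 as well. Among the epithelial markers 4 were called higher, with the keratin gene Krt18 and the claudin gene Cldn3 the surest of them, and 5 were not called. This count of 4 was 2 without Senexin B replicate 2 as well as with the 16 h libraries alone. Krt8, the most abundant marker, changed by 0.37 (SE 0.08, adjusted p = 0.0118) on the log2 scale, with adjusted p = 0.0577 without Senexin B replicate 2 and 0.0586 with the 16 h libraries alone. Krt19, another simple epithelial keratin, changed by 0.33 (SE 0.07, adjusted p = 0.0151) on the log2 scale, with adjusted p = 0.063 without Senexin B replicate 2 and 0.0699 with the 16 h libraries alone.

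At 16 h, Senexin B was accompanied by lower Egr1, by lower genes of hypoxia and glycolysis, and by some higher genes of drug metabolism, of the actin cytoskeleton and of the regenerating epithelium. The list of actin genes was drawn up after the values had been seen. Of the 15467 genes tested, 1198 were called (7.75%), 674 of them higher (4.36%) and 524 lower (3.39%). These shares of all genes are the background for each list count at 16 h, and no list was tested as a set against them. Protein-coding genes made up 1120 of the called genes. The changes were mostly small, with a median size of 0.50 on the log2 scale among called genes, and 215 of them (1.39% of the genes tested) lay beyond 2-fold, 151 higher and 64 lower. The groups did not overlap for 1191 of the called genes and for 3837 of the genes tested (24.8%). The median log2 fold change of all genes tested was −0.01. With the replicate number as a block 2338 genes were called (15.1%), among them 1197 of the 1198. It was 725 with the 16 h libraries alone, 1819 without DMSO replicate 1, 752 without Senexin B replicate 1, 657 without Senexin B replicate 2 and 676 without Senexin B replicate 3. Of the called genes, 500 (41.7%) were called in each of the 6 fits that left out a library.

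**Figure D1:**
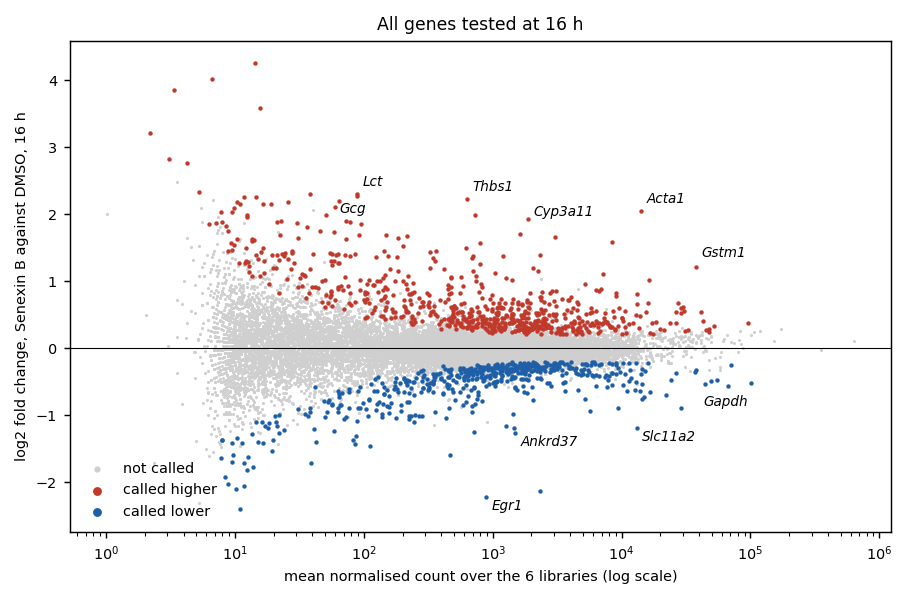
Fitted log2 fold change of each of the 15467 genes tested against its mean normalised count over the 6 libraries at 16 h, on a log scale. Red points are the 674 genes called higher with Senexin B, blue points the 524 called lower and grey points the others.

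The targets of the inhibitor were measured in every library. Cdk8 (ENSMUSG00000029635, chromosome 5, 146231230 to 146302874) had 1595, 1902 and 2102 counts in DMSO and 1824, 2035 and 1979 in Senexin B. Cdk19 (ENSMUSG00000038481, chromosome 10, 40339564 to 40483818) had 1146, 1218 and 1126 counts in DMSO and 1256, 1189 and 1249 in Senexin B. Both ranges overlap between the groups, and the log2 fold changes were 0.06 (SE 0.09, adjusted p = 0.764) for Cdk8 and 0.08 (SE 0.08, adjusted p = 0.626) for Cdk19. As transcript counts per length (TPM) the kinases stood at similar levels, 20.4 and 20.5 TPM for Cdk8 and 21.4 and 21.8 for Cdk19 in DMSO and Senexin B. Ccnc, which encodes cyclin C, had 375, 430.5 and 455 counts in DMSO and 368, 410.2 and 359.8 in Senexin B and a log2 fold change of −0.15. Of 6 tested genes of the kinase module edgeR called 0, with 0 at an unadjusted p under 0.05 and 0 by DESeq2, and with the replicate block 1 was called lower, the scaffold gene Med13 (log2 fold change −0.23, adjusted p with block = 0.0137). Of 26 core Mediator subunits edgeR called 0, with 3 at an unadjusted p under 0.05 and 0 by DESeq2. The core count was 2 without DMSO replicate 1 as well as with the replicate block, and 1 without DMSO replicate 3 or both replicate 1 libraries, each of these genes lower. Med15, the most abundant core subunit, had 2661, 2431 and 2515 counts in DMSO and 2358, 2475 and 2651 in Senexin B (log2 fold change −0.02, adjusted p = 0.88).

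Egr1 showed the lowest log2 fold change among the more abundant called genes. This zinc finger transcription factor is an immediate early gene of the serum response (ENSMUSG00000038418, chromosome 18, 34859823 to 34864984). It had 1831, 1356 and 1239 counts in DMSO and 358, 294 and 294 in Senexin B. The highest Senexin B library lay far below the lowest DMSO library, and the log2 fold change was −2.22 (SE 0.15, adjusted p = 3.1e-06). Vsir, an immune checkpoint receptor, fell in all treated libraries as well, from 737, 648 and 729 to 304, 185 and 208 normalised counts, log2 fold change −1.60 (SE 0.18, adjusted p = 0.000116). Upk3b, a uroplakin of urothelial and mesothelial membranes, had 2120, 1831 and 2119.7 counts in DMSO and 929, 856 and 863 in Senexin B, log2 fold change −1.20 (SE 0.17, adjusted p = 0.000654).

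Further genes with large falls serve different functions. The fructose transporter gene Slc2a5 had 1169.7, 989.8 and 856 counts in DMSO and 469.8, 420.3 and 379 in Senexin B, and the groups did not overlap (log2 fold change −1.25, SE 0.15, adjusted p = 0.000203). Iyd, which recycles iodide from iodotyrosines, changed by −1.43 (SE 0.22), Epb42, a protein of the red cell membrane skeleton, by −1.46 (SE 0.29), the plasmin inhibitor gene Serpinf2 by −1.24 (SE 0.18) and the cytochrome P450 gene Cyp2c29 by −1.31 (SE 0.26), all on the log2 scale and with groups that did not overlap. Nox1, a superoxide-producing NADPH oxidase, had 58.9, 147 and 151 counts in DMSO and 48.3, 44.7 and 45 in Senexin B. DMSO replicate 1 lay close to the treated libraries, and the log2 fold change of −1.37 (SE 0.31, adjusted p = 0.0135) was not called in some of the fits that left out a library, with adjusted p = 0.0641 without DMSO replicate 2, 0.0554 without DMSO replicate 3, 0.0577 without Senexin B replicate 2 and 0.0566 without Senexin B replicate 3.

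Among called protein-coding genes averaging 50 or more normalised counts with groups that did not overlap, the largest rises were in genes of different functions. Acta1, which encodes skeletal muscle alpha-actin (ENSMUSG00000031972, chromosome 8, 123891769 to 123894751), had 7104, 4008 and 5674 counts in DMSO and 20452, 22621 and 25833 in Senexin B. Each treated library held more than the highest control, and the log2 fold change was 2.04 (SE 0.17, adjusted p = 1.62e-05). Thbs1, the matrix glycoprotein thrombospondin, rose from 166, 201 and 307 to 1134, 878 and 1137 normalised counts (log2 fold change 2.22, SE 0.29, adjusted p = 0.000332). S100g, the calcium-binding protein of absorptive cells, went from 401, 287 and 199 to 1439, 1023 and 1041 (log2 fold change 1.98, SE 0.19, adjusted p = 3.74e-05). In both genes the lowest treated library was more than 2 times the highest control. Gcg, the proglucagon gene of L cells (ENSMUSG00000000394, chromosome 2, 62474530 to 62483650), had 26.4, 22.5 and 18.9 counts in DMSO and 110, 80.2 and 103 in Senexin B, with a log2 fold change of 2.11 (SE 0.19, adjusted p = 2.35e-05). Lct, the brush border lactase (ENSMUSG00000026354, chromosome 1, 128284756 to 128328318), had 33.5, 25.4 and 30.9 counts in DMSO and 244, 108 and 92 in Senexin B. Its treated libraries were spread widely, with replicate 1 far above replicates 2 and 3, and the log2 fold change was 2.30 (SE 0.35, adjusted p = 0.00104). Dsg3, a desmosomal cadherin (log2 fold change 2.27, SE 0.31), Me3, a mitochondrial malic enzyme (2.19, SE 0.33), and St6galnac1, a mucin sialyltransferase (1.85, SE 0.32), were also in this group. So were Krt15 (1.74, SE 0.25), the serine protease gene Prss23 (1.70, SE 0.18) and the steroid dehydrogenase gene Hsd17b6 (1.69, SE 0.19).

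**Figure D2:**
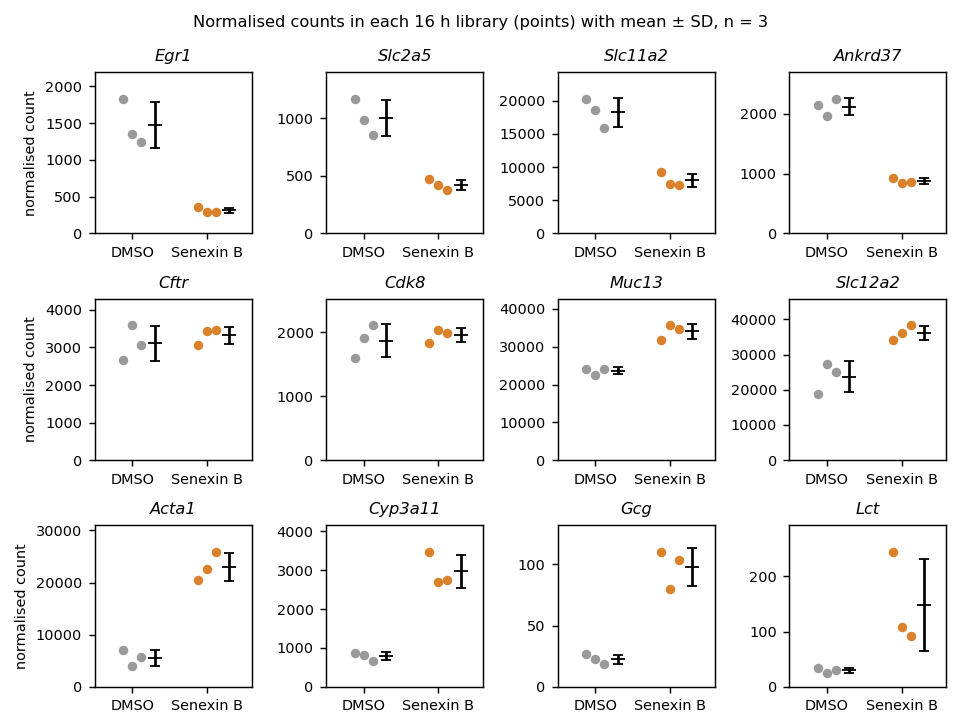
Normalised counts of 12 genes in each 16 h library, DMSO in grey and Senexin B in orange, with the mean and SD of 3 libraries as bars. The groups overlap for Cftr and Cdk8 and stand apart for the other 10 genes.

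Genes of hypoxia and glycolysis were lower as a group. Of 30 listed genes, each of them tested, 18 fell and 29 had a negative log2 fold change, and the list's median was −0.39 beside −0.01 for all genes. Their summed normalised counts were 666026, 598630 and 694307 in DMSO and 477109, 480814 and 486330 in Senexin B. The highest treated sum was below the lowest control sum. The 18 calls were 11 without DMSO replicate 3 or Senexin B replicate 1, and 10 without Senexin B replicate 2 or Senexin B replicate 3. Ankrd37, an ankyrin repeat gene known as a target of the hypoxia-inducible factor HIF-1 (ENSMUSG00000050914, chromosome 8, 45996902 to 46005707), had 2141, 1959 and 2244 counts in DMSO and 928, 842 and 863 in Senexin B. P4ha1, the collagen prolyl hydroxylase subunit (ENSMUSG00000019916, chromosome 10, 59323296 to 59373304), had 1767, 1915 and 2038 counts in DMSO and 942, 981 and 974 in Senexin B. The 3 treated libraries of each gene were close together and below every control, and the log2 fold changes were −1.27 (SE 0.20, adjusted p = 0.00115) for Ankrd37 and −0.98 (SE 0.09, adjusted p = 2.47e-05) for P4ha1. Kdm3a, a histone demethylase, changed by −0.63 (SE 0.10) and Pdk1, the kinase that restrains pyruvate entry into mitochondria, by −0.38 (SE 0.07).

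Some enzymes of glycolysis fell and others were not called. Gapdh, the dehydrogenase in the middle of the pathway, had 125280, 107196 and 125328 counts in DMSO and 81341, 84153 and 84895 in Senexin B, log2 fold change −0.52 (SE 0.07, adjusted p = 0.000474). Ldha, lactate dehydrogenase, had 65569, 59238 and 67976 counts in DMSO and 45438, 47615 and 46068 in Senexin B, log2 fold change −0.47 (SE 0.07, adjusted p = 0.000735). Gpi1, which turns glucose 6-phosphate into fructose 6-phosphate, had 53492, 47399.8 and 57488 counts in DMSO and 38181, 34298 and 36548 in Senexin B, log2 fold change −0.54 (SE 0.08, adjusted p = 0.00113). Every treated library lay below every control for these 3 enzymes. Several glycolytic genes have processed pseudogenes of near-identical sequence, so that reads of 50 bases may be split among copies. Hif1a, the gene of the oxygen-regulated subunit of HIF-1, had 1102, 1366 and 1449 counts in DMSO and 1366, 1704 and 1725 in Senexin B. Its groups overlap, and with a log2 fold change of 0.29 (SE 0.11, adjusted p = 0.118) it was the list's sole positive member, and it was called higher with the replicate block (adjusted p = 0.00484). The rises of the list were 1 without Senexin B replicate 1 as well as with the replicate block or the block in the 16 h libraries alone.

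**Figure D3:**
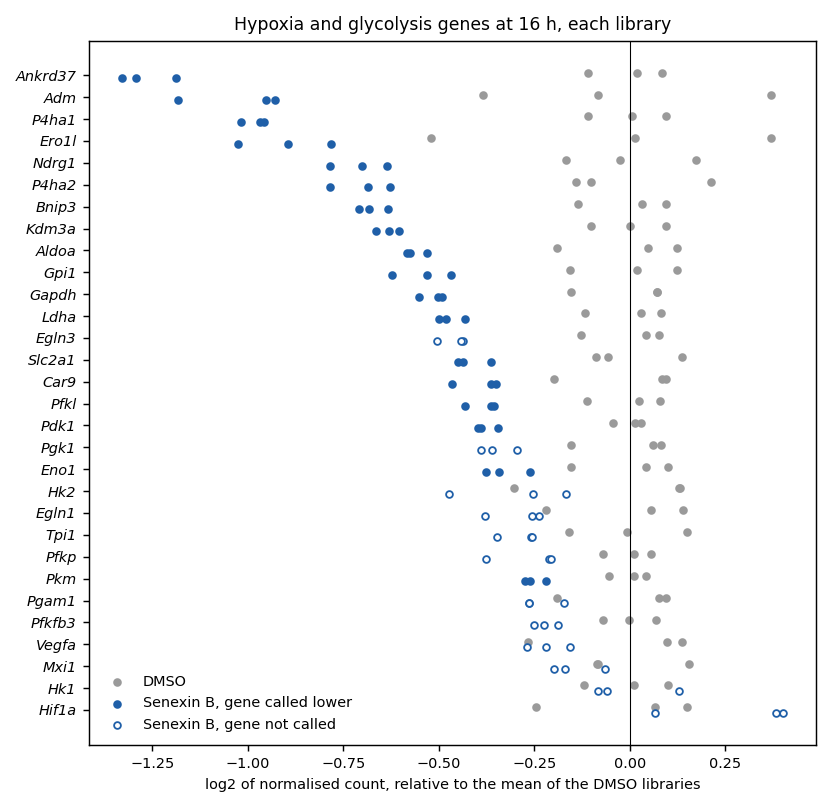
Log2 of the normalised count of each of the 30 hypoxia and glycolysis genes in each 16 h library, relative to the mean of the DMSO libraries (grey). Blue points are the Senexin B libraries, filled for the 18 genes called lower.

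The 250 bases before the RefSeq start nearest to the annotated start of each gene of this list were searched for ACGTG, the core of the hypoxia response element. Both strands were searched, the reverse complement of the core being CACGT. The palindrome CACGTG, which is also an E-box, holds the core on both strands. Windows of the RefSeq table (GRCm38.p6) were found for 28 of the 30 genes, and 14 of them (50%) held the core, as did 7 of the 16 called genes with a window (43.8%) and 5444 of 32851 windows of all promoters (16.6%). A match describes letters and not a bound site. The list was written from known genes of hypoxia and glycolysis, so its share above that of all promoters is no result of the treatment. The share among called genes, 43.8%, was not above the 50% of the list. Whether the core bears on the falls was not tested. Shown are the windows of the list's largest fall, of its smallest p-value and of the gene with the most runs, read 5′ to 3′ on the gene's strand with the core in capitals. Ankrd37 (chr8:45999851-46000100, reverse strand) held 2 runs, P4ha1 (chr10:59323046-59323295, forward strand) 1 and Ldha (chr7:46845554-46845803, forward strand) 3, of which 2 are the palindrome. For Ankrd37 and Ldha the RefSeq start, and with it the window, lies inside the gene positions of GENCODE, and for P4ha1 the starts agree.
Ankrd37: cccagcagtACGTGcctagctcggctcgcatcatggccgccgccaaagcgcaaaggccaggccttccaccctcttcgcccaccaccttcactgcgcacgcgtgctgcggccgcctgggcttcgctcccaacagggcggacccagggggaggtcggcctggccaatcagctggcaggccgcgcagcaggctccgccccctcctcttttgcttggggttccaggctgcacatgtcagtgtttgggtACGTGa
P4ha1: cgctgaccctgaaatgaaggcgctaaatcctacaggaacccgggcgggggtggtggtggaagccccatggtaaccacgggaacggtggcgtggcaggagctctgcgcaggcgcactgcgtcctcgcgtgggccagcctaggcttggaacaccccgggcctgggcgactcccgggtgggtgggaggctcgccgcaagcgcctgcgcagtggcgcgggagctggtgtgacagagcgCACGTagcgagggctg
Ldha: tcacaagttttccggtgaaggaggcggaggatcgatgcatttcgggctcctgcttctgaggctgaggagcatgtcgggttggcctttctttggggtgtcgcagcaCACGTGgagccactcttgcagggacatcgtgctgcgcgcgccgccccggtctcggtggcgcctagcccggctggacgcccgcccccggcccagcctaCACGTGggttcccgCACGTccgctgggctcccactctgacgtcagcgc

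Genes of iron transport were among the falls. Slc11a2, the divalent metal transporter that brings iron across the brush border (ENSMUSG00000023030, chromosome 15, 100387898 to 100425072), had 20297, 18599.5 and 15926 counts in DMSO and 9198, 7425 and 7373 in Senexin B. Each treated library lay far below the lowest control, and the log2 fold change was −1.19 (SE 0.26, adjusted p = 0.011), with adjusted p = 0.0568 without Senexin B replicate 2 and 0.055 without Senexin B replicate 3. Slc39a14, a zinc and iron transporter, had 8116, 7753 and 6838 counts in DMSO and 5239, 4985 and 5030.2 in Senexin B, log2 fold change −0.57 (SE 0.10, adjusted p = 0.00233). In a list of iron handling genes drawn up after these values were seen, 5 of 17 tested genes fell and 1 rose, with a median of −0.08. The falls were 2 without DMSO replicate 3, 3 without Senexin B replicate 1 or Senexin B replicate 3, and 1 without Senexin B replicate 2, and the rise, of the ferritin gene Fth1, was not called in other fits (adjusted p = 0.139 without DMSO replicate 2, 0.124 without DMSO replicate 3, 0.116 without Senexin B replicate 1, 0.098 without Senexin B replicate 2, 0.0791 without Senexin B replicate 3 and 0.0717 with the 16 h libraries alone).

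Among all 260 tested solute carriers 18 rose and 20 fell, with a median of −0.05, beside 4.36% called higher and 3.39% lower among all genes. The rises were 10 without DMSO replicate 3, 11 without Senexin B replicate 1, and 34 with the replicate block. The falls were 31 without DMSO replicate 1, 11 without DMSO replicate 2 or Senexin B replicate 2, 10 without Senexin B replicate 1 or Senexin B replicate 3, and 34 with the replicate block. Slc20a1, a sodium-phosphate cotransporter, had 1443, 1863 and 1879 counts in DMSO and 2910.3, 3152 and 3217 in Senexin B, and the groups stood well apart (log2 fold change 0.84, SE 0.09, adjusted p = 0.000111). Slc1a1, a transporter of glutamate and aspartate, changed by 0.54 (SE 0.07).

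Chloride and fluid secretion, the process served by Cftr, was examined because the study names it. Cftr, the apical chloride channel (ENSMUSG00000041301, chromosome 6, 18170687 to 18322768), had 2676, 3585 and 3064 counts in DMSO and 3066, 3435 and 3476 in Senexin B. The groups overlap, and the log2 fold change was 0.10 (SE 0.09, adjusted p = 0.605). Of 22 tested genes of the list 6 were called, all higher, with a median of 0.10, and 1 was lower without DMSO replicate 1 as well as with the replicate block. The list summed to 88993, 91041 and 83939 in DMSO and 103198, 103812 and 105966 in Senexin B, without overlap and with Slc12a2 at 31.1% of the counts. Slc12a2, the basolateral cotransporter that loads secretory cells with chloride (ENSMUSG00000024597, chromosome 18, 57878678 to 57946821), had 18696, 27422 and 25136 counts in DMSO and 34078, 36117 and 38239.8 in Senexin B, log2 fold change 0.61 (SE 0.12, adjusted p = 0.00529). Ano1, a calcium-activated chloride channel, had 763, 675 and 735 counts in DMSO and 1062, 1246 and 1443 in Senexin B, log2 fold change 0.79 (SE 0.11, adjusted p = 0.000677). Slc9a4, a sodium-proton exchanger, had 244, 163 and 176 counts in DMSO and 442, 560.4 and 587 in Senexin B, log2 fold change 1.45 (SE 0.15, adjusted p = 7.03e-05). Control and treated libraries did not overlap for these 3 genes. The exchangers Slc9a2 (0.49, SE 0.08) and Slc26a3 (0.33, SE 0.07) were higher on the log2 scale too.

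Some mucus genes rose, and most, among them the main gel-forming mucin gene, were not called. Muc2, the secreted mucin of goblet cells, had 4596, 4131 and 3263 counts in DMSO and 4321, 4361 and 3975 in Senexin B, with overlapping groups and a log2 fold change of 0.08 (adjusted p = 0.784). Of 19 tested goblet cell genes 6 were called, all higher, with a median of 0.05, and 3 were higher without Senexin B replicate 2 as well as with the 16 h libraries alone. Their summed counts overlapped between the groups, 116451, 120682 and 98833 in DMSO and 107807, 109111 and 98252 in Senexin B, and Fcgbp, a mucus protein that binds antibodies, held 53.4% of them. The falls, 0 in the edgeR test and 0 with DESeq2, were 1 without DMSO replicate 1, DMSO replicate 3 or both replicate 1 libraries as well as with the replicate block, and 3 with no filter. Clca1, a secreted protease of the mucus, had 2304, 2485 and 1908 counts in DMSO and 3862, 4843 and 3361 in Senexin B, log2 fold change 0.85 (SE 0.13, adjusted p = 0.00127). Bcas1, a gene first described in breast tumours, changed by 0.72 (SE 0.09) and the mucus lectin gene Zg16 by 0.54 (SE 0.09). Agr2, a disulfide isomerase needed to fold mucins, had 3382, 3979.8 and 4520.3 counts in DMSO and 4827, 6019 and 5302 in Senexin B and a log2 fold change of 0.44 (SE 0.12, adjusted p = 0.0368), with adjusted p = 0.079 without DMSO replicate 1, 0.0922 without DMSO replicate 2, 0.141 without Senexin B replicate 2, 0.0908 without Senexin B replicate 3, 0.0595 without both replicate 1 libraries and 0.057 with the 16 h libraries alone. Spdef, a transcription factor of secretory cells, changed by 0.43 (SE 0.10, adjusted p = 0.0159) on the log2 scale, with adjusted p = 0.0792 without Senexin B replicate 2 and 0.0749 with the 16 h libraries alone. Of 6 tested membrane-bound mucins 1 was called. It was Muc13 (ENSMUSG00000022824, chromosome 16, 33794037 to 33819934), with 24204, 22585 and 24065 counts in DMSO and 31835, 35619 and 34732 in Senexin B, no overlap and a log2 fold change of 0.53 (SE 0.06, adjusted p = 0.000202). This list of mucins had a median of 0.41 and summed to 32069, 29214 and 31711 in DMSO and 38249, 46592 and 44374 in Senexin B, without overlap and with Muc13 at 77.9% of the counts, and the calls were 2 without both replicate 1 libraries as well as with no filter or the block in the 16 h libraries alone. Muc3 had 2712, 1788 and 2705 counts in DMSO and 1811, 4629.7 and 3518 in Senexin B. Treated replicates 2 and 3 were high and replicate 1 was within the control range (adjusted p = 0.375). The inflammasome gene Nlrp6 (0.02), the glycosyltransferase gene Gcnt4 (−0.06) and the trefoil gene Tff1 (−0.50), whose counts were 11.7 to 52.8, were not called either.

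Some genes of hormone-producing cells rose, and most were not called. Of 23 tested enteroendocrine genes 8 rose and 1 fell, 21 had a positive log2 fold change, and the median was 0.44. The rises were 5 without DMSO replicate 2, Senexin B replicate 1 or Senexin B replicate 3 as well as with the 16 h libraries alone, and 4 without DMSO replicate 3 or Senexin B replicate 2. Beside Gcg, the rises included Tph1, which makes serotonin in enterochromaffin cells, and Pcsk1, the prohormone convertase (log2 fold change 1.02, SE 0.20). Tph1 had 319, 361 and 316 counts in DMSO and 553, 699.5 and 613 in Senexin B (log2 fold change 0.91, SE 0.12, adjusted p = 0.000467). Neurog3, the factor that specifies the lineage, was the gene that fell. The falls were 0 without DMSO replicate 3, Senexin B replicate 2 or Senexin B replicate 3 as well as with the 16 h libraries alone, and 2 with DESeq2, no filter or the replicate block. It had 890.3, 840.5 and 1019 counts in DMSO and 731, 662 and 733 in Senexin B, log2 fold change −0.37 (SE 0.09, adjusted p = 0.0197), and adjusted p = 0.0774 without DMSO replicate 3, 0.0993 without Senexin B replicate 2, 0.0501 without Senexin B replicate 3 and 0.0583 with the 16 h libraries alone. Pax6, an enteroendocrine transcription factor, changed by 1.18 (SE 0.27, adjusted p = 0.0138) on the log2 scale, with adjusted p = 0.0641 without Senexin B replicate 2 and 0.0555 without both replicate 1 libraries. Their summed counts overlapped between the groups, 12142, 10806 and 11126 in DMSO and 11713, 13916 and 11855 in Senexin B, and Chgb, which was not among the called genes, held 39.5% of them.

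In tuft cells, 3 of 14 tested genes rose and 1 fell, with a median of 0.35 and overlapping sums of 1374, 1408 and 1367 in DMSO and 1800, 1400 and 1572 in Senexin B. Ptgs1 and Hpgds, both enzymes of prostaglandin synthesis, changed by 1.00 (SE 0.13) and 1.38 (SE 0.28), and Alox5ap, which serves leukotriene synthesis, by 0.62 (SE 0.17; adjusted p = 0.0718 without DMSO replicate 1, 0.127 without DMSO replicate 2, 0.136 without Senexin B replicate 1, 0.0847 without Senexin B replicate 2, 0.0887 without Senexin B replicate 3, 0.181 without both replicate 1 libraries, 0.103 with the 16 h libraries alone, 0.0692 with DESeq2, 0.0795 with no filter, 0.29 with unstranded counts and 0.0708 with the block in the 16 h libraries alone). The fall was Il17rb, a subunit of the receptor for interleukin 25, with 272, 312 and 267 counts in DMSO and 178, 141 and 171 in Senexin B (log2 fold change −0.80, SE 0.16, adjusted p = 0.00745). The marker Dclk1 had 168, 158 and 182 counts in DMSO and 220, 163 and 179 in Senexin B, with overlapping groups (adjusted p = 0.592).

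Crypt base genes and Wnt targets are given beside the 7.75% called among all genes. Of 17 tested stem cell genes 1 rose and 1 fell, with a median of 0.04 and overlapping sums of 90311, 117789 and 119716 in DMSO and 110018, 108280 and 117240 in Senexin B. The fall was Lgr5, the receptor that marks crypt stem cells, with 7269, 10057 and 10309.7 counts in DMSO and 6493, 6414 and 6988 in Senexin B. DMSO replicate 1 stood near the treated libraries, and the log2 fold change was −0.47 (SE 0.12, adjusted p = 0.0285), with adjusted p = 0.107 without DMSO replicate 2, 0.101 without DMSO replicate 3, 0.0882 without Senexin B replicate 1, 0.109 without Senexin B replicate 2, 0.0629 without Senexin B replicate 3 and 0.0546 with the 16 h libraries alone. The rise was Soat1, which esterifies cholesterol (0.37, SE 0.06, adjusted p = 0.00247). The stem cell rises were 3 with DESeq2 or the replicate block, and 2 with no filter or the block in the 16 h libraries alone, and the falls 0 without DMSO replicate 2, DMSO replicate 3, Senexin B replicate 1, Senexin B replicate 2 or Senexin B replicate 3 as well as with the 16 h libraries alone, and 2 with the replicate block. Olfm4, another stem cell marker, had 21311, 35837 and 37385 counts in DMSO and 32965, 28469 and 33713 in Senexin B and was not called (adjusted p = 0.984). Of 17 tested Wnt targets 4 rose, among them the ephrin receptor gene Ephb3 (0.41, SE 0.08, adjusted p = 0.00575), with a median of 0.02 and sums of 63208, 63395 and 61479 in DMSO and 69807, 72159 and 71829 in Senexin B, which did not overlap. The rises were 1 without Senexin B replicate 2 or Senexin B replicate 3, and with the block 2 Wnt targets were lower. Myc, a regulator of growth, changed by 0.37 (SE 0.08, adjusted p = 0.0117) on the log2 scale, with adjusted p = 0.0571 without Senexin B replicate 2 and 0.0531 without Senexin B replicate 3. Cd44, an adhesion receptor, changed by 0.54 (SE 0.12, adjusted p = 0.0132) on the log2 scale, with adjusted p = 0.06 without Senexin B replicate 2 and 0.0582 without Senexin B replicate 3. Ccnd1, cyclin D1, changed by 0.32 (SE 0.08, adjusted p = 0.0174) on the log2 scale, with adjusted p = 0.0584 without DMSO replicate 2, 0.0562 without Senexin B replicate 1, 0.0571 without Senexin B replicate 2, 0.0533 without Senexin B replicate 3 and 0.0545 without both replicate 1 libraries.

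Of 19 tested Paneth cell genes 3 fell and 1 rose, with a median of −0.02. Their summed counts, of which Defa24 held 31.1%, were 73262, 100809 and 95504 in DMSO and 67486, 72867 and 57094 in Senexin B. DMSO replicate 1 and Senexin B replicate 2 were close, and the groups did not overlap. Itln1, a lectin of Paneth and goblet cells, had 16613, 23086 and 21603 counts in DMSO and 13327, 14474 and 11036 in Senexin B (log2 fold change −0.66, SE 0.14, adjusted p = 0.00912; adjusted p = 0.0533 without Senexin B replicate 3), and 2 defensin genes, members of a family of near-identical paralogs, were the other falls. Defa30, one of these, changed by −0.45 (SE 0.10, adjusted p = 0.0114) on the log2 scale, with adjusted p = 0.0645 without Senexin B replicate 3. Defa24, the other and the most abundant of the list, changed by −0.47 (SE 0.13, adjusted p = 0.0411) on the log2 scale, with adjusted p = 0.148 without DMSO replicate 2, 0.126 without DMSO replicate 3, 0.084 without Senexin B replicate 1, 0.0702 without Senexin B replicate 2, 0.162 without Senexin B replicate 3 and 0.0837 with the 16 h libraries alone. The falls were 5 without DMSO replicate 1 or both replicate 1 libraries as well as with the block in the 16 h libraries alone, 0 without Senexin B replicate 3, and 6 with the replicate block. The rise, of the stress gene Nupr1, was 0.55 (SE 0.11, adjusted p = 0.00575), and the rises were 2 without Senexin B replicate 3 as well as with no filter. Lyz1, the Paneth cell lysozyme, had 11814, 18179 and 16567 counts in DMSO and 11407, 11799 and 9041 in Senexin B. Control replicates 2 and 3 were high and replicate 1 was close to the treated libraries, and the log2 fold change of −0.53 (SE 0.18) had an adjusted p of 0.0901, which was 0.0232 with the replicate block, 0.0218 with the block in the 16 h libraries alone, 0.000291 with no filter, 0.0175 without DMSO replicate 1 and 0.0347 without both replicate 1 libraries. Of 14 Notch pathway genes 1 rose, the feedback inhibitor gene Nrarp (0.45, SE 0.09, adjusted p = 0.00613), and 2 fell, with a median of −0.06. Notch1, a receptor and one of the falls, had 1580.3, 1633 and 1336 counts in DMSO and 1197, 1124 and 1247 in Senexin B (log2 fold change −0.35, SE 0.09, adjusted p = 0.0302), with adjusted p = 0.0514 without DMSO replicate 1, 0.111 without DMSO replicate 2, 0.0786 without Senexin B replicate 1, 0.136 without Senexin B replicate 2, 0.0603 without Senexin B replicate 3, 0.106 without both replicate 1 libraries, 0.0648 with the 16 h libraries alone and 0.0562 with unstranded counts. Notch3, the other receptor that fell, changed by −0.61 (SE 0.15, adjusted p = 0.0197) on the log2 scale, with adjusted p = 0.0818 without DMSO replicate 2, 0.0518 without DMSO replicate 3, 0.0605 without Senexin B replicate 1, 0.0658 without Senexin B replicate 2 and 0.0739 without Senexin B replicate 3. The rises were 3 without DMSO replicate 2, 2 without DMSO replicate 3 as well as with DESeq2, and 4 with the replicate block, and the falls were 1 without DMSO replicate 1, DMSO replicate 3 or both replicate 1 libraries as well as with the 16 h libraries alone or unstranded counts, and 0 without DMSO replicate 2, Senexin B replicate 1, Senexin B replicate 2 or Senexin B replicate 3. Hes1, the main Notch effector, had 2961, 2815 and 3267 counts in DMSO and 3547, 3369 and 3421 in Senexin B, without overlap and with an adjusted p of 0.0959, which was 0.0392 with the replicate block and 0.0421 without DMSO replicate 3.

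Enterocyte genes went both ways. Of 31 tested brush border and enterocyte genes 5 rose and 4 fell, with a median of −0.01 and overlapping sums of 272391, 261070 and 229822 in DMSO and 244622, 252593 and 251140 in Senexin B. The rises were 3 without DMSO replicate 3, Senexin B replicate 3 or both replicate 1 libraries as well as with the 16 h libraries alone, and 2 without Senexin B replicate 1 or Senexin B replicate 2. The falls were 7 without DMSO replicate 3, and 2 without Senexin B replicate 1 or Senexin B replicate 3. Beside Lct, the peptidase gene Anpep was among the rises, with 7407, 9269 and 12219 counts in DMSO and 13644, 18381 and 18683 in Senexin B. Beside Slc2a5, the falls included the metalloprotease gene Mep1a, which had 896, 773 and 704 counts in DMSO and 494, 431 and 433 in Senexin B (log2 fold change −0.80, SE 0.12, adjusted p = 0.000874), and the disaccharidase gene Sis, which had 15399.7, 23221 and 17667 counts in DMSO and 9569, 12833 and 11468 in Senexin B (log2 fold change −0.73, SE 0.17, adjusted p = 0.0138; adjusted p = 0.0693 without DMSO replicate 2, 0.0654 without Senexin B replicate 1 and 0.0515 without Senexin B replicate 3). For Anpep the log2 fold change was 0.81 (SE 0.23, adjusted p = 0.046), with adjusted p = 0.0986 without DMSO replicate 1, 0.131 without DMSO replicate 2, 0.131 without Senexin B replicate 2, 0.144 without Senexin B replicate 3 and 0.08 without both replicate 1 libraries. Of 26 intestinal transcription factors 2 rose and 1 fell, with a median of 0.01, beside 7.75% called among all genes. Isx, which controls vitamin A uptake, had 1743, 1861 and 1715 counts in DMSO and 1135, 637 and 596 in Senexin B. Treated replicate 1 was higher than the other treated libraries and below every control (log2 fold change −1.17, SE 0.20, adjusted p = 0.00271). Onecut2 (0.56, SE 0.09) and the crypt factor gene Klf5 (0.40, SE 0.07) rose. Of 7 genes of ileal bile acid handling 3 rose, with a median of 0.19, and the count was 1 without DMSO replicate 2, DMSO replicate 3, Senexin B replicate 1 or Senexin B replicate 2 as well as with the 16 h libraries alone. Nr1h4, the bile acid receptor FXR, was one of them (0.37, SE 0.07, adjusted p = 0.00732). Fgf15, a hormone that restrains bile acid synthesis, changed by 0.90 (SE 0.26, adjusted p = 0.0441) on the log2 scale, with adjusted p = 0.13 without DMSO replicate 2, 0.105 without DMSO replicate 3, 0.13 without Senexin B replicate 1, 0.084 without Senexin B replicate 2, 0.106 without Senexin B replicate 3 and 0.121 with the 16 h libraries alone. Slc10a2, the apical bile acid transporter, changed by 1.11 (SE 0.32, adjusted p = 0.0485) on the log2 scale, with adjusted p = 0.146 without DMSO replicate 2, 0.121 without DMSO replicate 3, 0.105 without Senexin B replicate 1, 0.195 without Senexin B replicate 2, 0.0814 without both replicate 1 libraries, 0.0901 with the 16 h libraries alone, 0.0683 with DESeq2 and 0.0568 with the block in the 16 h libraries alone.

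Some enzymes of drug and xenobiotic metabolism rose. Of 32 tested genes of the oxidative stress and xenobiotic response 11 rose and 1 fell, with a median of 0.17, and the summed counts were 226843, 205692 and 215941 in DMSO and 293031, 279293 and 290595 in Senexin B, with no overlap. Cyp3a11, the main drug-oxidising cytochrome P450 of mouse liver and gut (ENSMUSG00000056035, chromosome 5, 145854426 to 145879964), had 863, 816 and 666 counts in DMSO and 3464, 2705 and 2745 in Senexin B. Every treated library held more than 3 times the counts of the highest control, and the log2 fold change was 1.93 (SE 0.17, adjusted p = 1.8e-05). Gstm1, a glutathione transferase, had 20725, 20837 and 27246 counts in DMSO and 55666, 49665 and 54251 in Senexin B, log2 fold change 1.21 (SE 0.14, adjusted p = 0.000116). Abcb1a, the drug efflux pump P-glycoprotein, had 3075, 4063 and 3553 counts in DMSO and 5911, 7611 and 7151 in Senexin B, log2 fold change 0.95 (SE 0.12, adjusted p = 0.000203). The others included Cyp3a25 (1.34, SE 0.09), Cyp2c55 (1.66, SE 0.21), Gsta2 (1.37, SE 0.11), Gsta4 (0.82, SE 0.09) and the carboxylesterase gene Ces1g (1.14, SE 0.09). These families hold close paralogs, among which reads of 50 bases are assigned with some uncertainty. The fall was Hmox1, the haem-degrading enzyme (−0.83, SE 0.20, adjusted p = 0.0216), with adjusted p = 0.0897 without DMSO replicate 3, 0.0917 without Senexin B replicate 1, 0.0826 without Senexin B replicate 2, 0.0805 without both replicate 1 libraries and 0.0604 with the 16 h libraries alone. Targets of the aryl hydrocarbon receptor, another sensor of foreign compounds, gave 0 calls of 8 tested with edgeR, 0 at an unadjusted p under 0.05 and 0 with DESeq2, and Cyp1a2 was at 0 in every library. Nfe2l2, the transcription factor NRF2 and the most abundant of these, had 10401, 11126 and 11327 counts in DMSO and 10402, 11704 and 11143 in Senexin B (log2 fold change 0.02, adjusted p = 0.909). In families collected after the values were seen, 7 of 50 cytochrome P450 genes rose and 3 fell (median 0.09), and 3 of 16 glucuronosyl- and sulfotransferase genes rose and 1 fell (median 0.13). The P450 rises were 12 without DMSO replicate 1 as well as with the replicate block, and the falls 7 with no filter, and 6 with the replicate block or the block in the 16 h libraries alone. The transferase rises were 1 without DMSO replicate 3, Senexin B replicate 1, Senexin B replicate 2 or Senexin B replicate 3, and the fall 0 without Senexin B replicate 3 as well as with the 16 h libraries alone.

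Genes of the regenerating epithelium and YAP targets rose in 11 of 18 tested cases, 17 had a positive log2 fold change, and the median was 0.57. The count of 11 was 7 without DMSO replicate 2. Anxa3, an annexin (ENSMUSG00000029484, chromosome 5, 96793339 to 96845966), had 1395, 1220.2 and 1542 counts in DMSO and 2741, 3233 and 3282 in Senexin B. Areg, the EGF receptor ligand amphiregulin (ENSMUSG00000029378, chromosome 5, 91139599 to 91148432), had 1318, 1046 and 1422 counts in DMSO and 2717, 3045 and 2863 in Senexin B. In both genes each treated library was above all controls, with log2 fold changes of 1.15 (SE 0.09, adjusted p = 1.04e-05) and 1.19 (SE 0.11, adjusted p = 2.06e-05). Clu, which marks revival stem cells, had 3084, 2619 and 3095 counts in DMSO and 4935, 4442 and 5115 in Senexin B (log2 fold change 0.72, SE 0.11, adjusted p = 0.000973). Ly6a, the surface marker Sca-1 of repairing epithelium, had 1286, 1009 and 1579 counts in DMSO and 2105, 4443 and 3548 in Senexin B. Its treated replicate 1 was the lowest of the 3 and still above the controls (log2 fold change 1.38, SE 0.26, adjusted p = 0.00456). Krt7, a keratin, changed by 0.46 (SE 0.07, adjusted p = 0.00161) on the log2 scale.

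Actin and contractile genes, listed after the rise of Acta1 was seen, gave 13 rises among 22 tested genes and a median of 0.28. Flna, the actin crosslinker filamin A, had 4006, 5177 and 4395 counts in DMSO and 10057, 9001 and 10134 in Senexin B (log2 fold change 1.10, SE 0.10, adjusted p = 2.47e-05). Myl7, a myosin light chain of the heart, had 267, 163 and 159 counts in DMSO and 480.1, 521 and 496 in Senexin B (log2 fold change 1.34, SE 0.16, adjusted p = 0.000179). Treated and control libraries did not overlap for either. Srf, the serum response factor, rose by 0.51 (SE 0.09) on the log2 scale, while Actb, cytoplasmic beta-actin, with 44551, 33866 and 38859 counts in DMSO and 46157, 43555 and 44947 in Senexin B, was not called (adjusted p = 0.192). Actin genes are close paralogs, so part of these counts may be assigned among them with error. Keratins, also listed afterwards, rose in 10 of 16 tested cases, each of the 16 had a positive log2 fold change, and the median was 0.44. These 16 are the ones that passed the filter out of 38 in the family, of which 22 averaged under 10 counts at 16 h. A keratin gene could pass on higher counts in the Senexin B libraries alone, so the shared sign of the 16 does not describe the family. Krt18 had 36648, 28994 and 35805 counts in DMSO and 46062, 50044 and 51247 in Senexin B (log2 fold change 0.54, SE 0.09, adjusted p = 0.00195), and Krt84, a hair keratin, had 2.03, 0 and 1.99 counts in DMSO and 26.7, 26.4 and 29.6 in Senexin B.

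Immediate early genes went both ways. Of 32 tested 8 rose and Egr1 fell, 21 had a positive and 11 a negative log2 fold change, with a median of 0.05. The rises were 5 without DMSO replicate 2, DMSO replicate 3, Senexin B replicate 1 or Senexin B replicate 3, and the falls 2 without Senexin B replicate 1, 3 with DESeq2, no filter or the block in the 16 h libraries alone, and 4 with the replicate block. Dusp4, a phosphatase that switches off MAP kinases, had 2658, 2770.3 and 2429 counts in DMSO and 4037, 4402 and 4605 in Senexin B, with groups well apart (log2 fold change 0.73, SE 0.08, adjusted p = 0.000147), and Ier5 changed by 0.47 (SE 0.08). Of 22 TGF-beta and BMP genes 1 rose and 4 fell, with a median of −0.10. The falls included Id2, an inhibitor of differentiation factors, with 1951, 2179 and 2032 counts in DMSO and 1351, 1451 and 1340.1 in Senexin B (log2 fold change −0.57, SE 0.07, adjusted p = 0.000335), and the ligand gene Bmp2 (−0.47, SE 0.09). The rise, of the receptor gene Tgfbr2, was 0.34 (SE 0.08, adjusted p = 0.014), with adjusted p = 0.0562 without DMSO replicate 3 and 0.06 without Senexin B replicate 3. Of 29 p53 targets 9 rose and 1 fell, with a median of 0.15. Plk2, a stress-induced kinase, had 508, 593 and 586 counts in DMSO and 977, 993 and 1027 in Senexin B (log2 fold change 0.83, SE 0.08, adjusted p = 2.47e-05), and the apoptosis genes Bax (0.48, SE 0.07) and Pmaip1 (0.45, SE 0.08) were higher. Dcxr, dicarbonyl and xylulose reductase, changed by 0.61 (SE 0.09, adjusted p = 0.000878) on the log2 scale. Fas, the death receptor, was the fall (−0.65, SE 0.18, adjusted p = 0.0454), with adjusted p = 0.117 without DMSO replicate 2, 0.0899 without DMSO replicate 3, 0.0806 without Senexin B replicate 1, 0.184 without Senexin B replicate 2, 0.0748 without Senexin B replicate 3, 0.0785 without both replicate 1 libraries and 0.0814 with the 16 h libraries alone. The falls were 0 without DMSO replicate 2, DMSO replicate 3, Senexin B replicate 1, Senexin B replicate 2, Senexin B replicate 3 or both replicate 1 libraries as well as with the 16 h libraries alone, unstranded counts or the block in the 16 h libraries alone, and 2 with no filter or the replicate block.

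Lists of proliferation genes are given beside the 7.75% called among all genes. Of 38 DNA replication genes 1 rose, the polymerase gene Pold1 (0.30, SE 0.06, adjusted p = 0.00596), with a median of −0.03. The replication rises were 2 without DMSO replicate 2 as well as with DESeq2, no filter or the block in the 16 h libraries alone, and 4 with the replicate block, and the falls, 0 in the edgeR test and 1 with DESeq2, were 3 without DMSO replicate 1 as well as with the block in the 16 h libraries alone, 1 without both replicate 1 libraries as well as with DESeq2, 2 with no filter, and 5 with the replicate block. Of 30 mitosis genes 2 rose, among them the phosphatase gene Cdc25b (0.30, SE 0.06, adjusted p = 0.00529), with a median of 0.04. The mitosis rises were 1 without DMSO replicate 1, Senexin B replicate 1, Senexin B replicate 2, Senexin B replicate 3 or both replicate 1 libraries as well as with the 16 h libraries alone, 4 with the replicate block, and 5 with the block in the 16 h libraries alone. Ect2, a cytokinesis factor, changed by 0.34 (SE 0.10, adjusted p = 0.042) on the log2 scale, with adjusted p = 0.0783 without DMSO replicate 1, 0.0706 without DMSO replicate 3, 0.0606 without Senexin B replicate 1, 0.13 without Senexin B replicate 2, 0.12 without Senexin B replicate 3, 0.0805 without both replicate 1 libraries and 0.104 with the 16 h libraries alone. Of 30 genes of Myc and ribosome biogenesis 2 rose and 1 fell, with a median of 0.10. The rises were 1 without Senexin B replicate 1 or both replicate 1 libraries as well as with the 16 h libraries alone, 0 without Senexin B replicate 2 or Senexin B replicate 3, 4 with DESeq2, and 7 with the replicate block, and the fall was 0 without DMSO replicate 2, DMSO replicate 3, Senexin B replicate 2 or Senexin B replicate 3 as well as with the 16 h libraries alone. Rrp9, a nucleolar processing factor, changed by 0.31 (SE 0.08, adjusted p = 0.0267) on the log2 scale, with adjusted p = 0.101 without DMSO replicate 2, 0.0773 without Senexin B replicate 1, 0.0827 without Senexin B replicate 2, 0.0688 without Senexin B replicate 3, 0.0732 without both replicate 1 libraries and 0.0631 with the 16 h libraries alone. Tfrc, the transferrin receptor, changed by −0.44 (SE 0.11, adjusted p = 0.0218) on the log2 scale, with adjusted p = 0.0845 without DMSO replicate 2, 0.0828 without DMSO replicate 3, 0.0949 without Senexin B replicate 2, 0.0881 without Senexin B replicate 3 and 0.057 with the 16 h libraries alone. Of 14 tested replication-dependent histone genes 2 fell, Hist1h1c (−0.95, SE 0.17, adjusted p = 0.00397) and Hist2h2be (−0.88, SE 0.13, adjusted p = 0.000732), and all 14 had a negative log2 fold change, with a median of −0.43. These 14 are the ones that passed the filter out of 62 in the family, of which 55 averaged under 10 counts at 16 h. A gene could pass on higher counts in the DMSO libraries alone, so the shared sign of the 14 does not describe the family.

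Some genes of cholesterol synthesis fell. Of 27 tested genes of cholesterol synthesis and uptake 6 fell and 19 had a negative log2 fold change, with a median of −0.22. The count of 6 was 14 without DMSO replicate 1 as well as with the replicate block, 3 without Senexin B replicate 1, 2 without Senexin B replicate 2, 12 without both replicate 1 libraries, 13 with DESeq2, 11 with no filter, and 10 with the block in the 16 h libraries alone. Hmgcs1, the enzyme before the rate-limiting step, had 13723, 17681 and 19759.8 counts in DMSO and 9744, 11409 and 11496 in Senexin B, without overlap (log2 fold change −0.65, SE 0.11, adjusted p = 0.00271), and the cyclase gene Lss had 6533, 8550.1 and 7854 counts in DMSO and 5599.6, 5696 and 5889.8 in Senexin B (log2 fold change −0.42, SE 0.09, adjusted p = 0.01). Dhcr7, which makes the last step to cholesterol, changed by −0.34 (SE 0.07, adjusted p = 0.00813) on the log2 scale, with adjusted p = 0.0513 without Senexin B replicate 2. Cyp51, the sterol demethylase, changed by −0.34 (SE 0.08, adjusted p = 0.0164) on the log2 scale, with adjusted p = 0.0648 without DMSO replicate 3, 0.0762 without Senexin B replicate 1 and 0.0574 without Senexin B replicate 2. Of 22 genes of fatty acid synthesis 2 rose and 1 fell, with a median of 0.00, beside 7.75% called among all genes. The rises were 1 without DMSO replicate 1, DMSO replicate 3 or Senexin B replicate 2, 0 without Senexin B replicate 1, Senexin B replicate 3 or both replicate 1 libraries, and 4 with the replicate block, and the fall 0 without DMSO replicate 2, Senexin B replicate 1, Senexin B replicate 2 or Senexin B replicate 3 as well as with the 16 h libraries alone, 2 with DESeq2, 3 with no filter or the block in the 16 h libraries alone, and 4 with the replicate block. Acss2, an acetyl-CoA synthetase, changed by 0.35 (SE 0.08, adjusted p = 0.0198) on the log2 scale, with adjusted p = 0.0503 without Senexin B replicate 1, 0.0839 without Senexin B replicate 3 and 0.0823 without both replicate 1 libraries. Scd1, a desaturase, changed by 0.54 (SE 0.15, adjusted p = 0.0373) on the log2 scale, with adjusted p = 0.0751 without DMSO replicate 1, 0.0627 without DMSO replicate 2, 0.0775 without DMSO replicate 3, 0.0848 without Senexin B replicate 1, 0.0844 without Senexin B replicate 2, 0.111 without Senexin B replicate 3 and 0.14 without both replicate 1 libraries. Acly, which makes cytosolic acetyl-CoA, changed by −0.32 (SE 0.09, adjusted p = 0.0339) on the log2 scale, with adjusted p = 0.119 without DMSO replicate 2, 0.11 without DMSO replicate 3, 0.0874 without Senexin B replicate 1, 0.126 without Senexin B replicate 2, 0.0838 without Senexin B replicate 3 and 0.085 with the 16 h libraries alone. Of 30 genes of fatty acid oxidation and PPAR targets 1 rose and 2 fell, beside 7.75% called among all genes. The median of the list was −0.05, and the rise was the pantetheinase gene Vnn1 (1.07, SE 0.23, adjusted p = 0.00938). The rises were 4 without DMSO replicate 1 as well as with the replicate block or the block in the 16 h libraries alone, and 2 without Senexin B replicate 1 or both replicate 1 libraries as well as with DESeq2 or no filter, and the falls 1 without DMSO replicate 1, 0 without Senexin B replicate 1, Senexin B replicate 2, Senexin B replicate 3 or both replicate 1 libraries as well as with the 16 h libraries alone, and 4 with the replicate block. Ehhadh, a peroxisomal enzyme of beta-oxidation, changed by −0.27 (SE 0.07, adjusted p = 0.0249) on the log2 scale, with adjusted p = 0.079 without DMSO replicate 2, 0.0715 without Senexin B replicate 1, 0.0954 without Senexin B replicate 2, 0.0774 without Senexin B replicate 3, 0.0992 without both replicate 1 libraries and 0.1 with the 16 h libraries alone. Acadm, a mitochondrial dehydrogenase of beta-oxidation, changed by −0.28 (SE 0.07, adjusted p = 0.0303) on the log2 scale, with adjusted p = 0.0622 without DMSO replicate 1, 0.084 without Senexin B replicate 1, 0.119 without Senexin B replicate 2, 0.0748 without Senexin B replicate 3, 0.122 without both replicate 1 libraries and 0.0898 with the 16 h libraries alone.

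Interferon-stimulated genes varied widely among libraries of the same group. Their summed counts were 68228, 80051 and 97261 in DMSO and 45306, 101173 and 88116 in Senexin B, with Senexin B replicate 1 the lowest of the 6 and replicate 2 the highest. Of 39 tested edgeR called 0, with 3 at an unadjusted p under 0.05 and 0 by DESeq2, and the median was −0.07. The rises were 1 without Senexin B replicate 1 or both replicate 1 libraries as well as with no filter, the replicate block or the block in the 16 h libraries alone, and the falls 5 with no filter, 8 with the replicate block, and 7 with the block in the 16 h libraries alone. Lgals3bp, the most abundant interferon-stimulated gene, had 22024, 23616 and 26016 counts in DMSO and 17569.9, 25855 and 24282 in Senexin B (log2 fold change −0.08, adjusted p = 0.835). MHC class I presentation gave 0 calls of 20 with edgeR, 3 at an unadjusted p under 0.05, and a median of −0.10. The falls were 1 with DESeq2, no filter or the replicate block. Calr, calreticulin and the most abundant of these, had 18348, 18068 and 19754 counts in DMSO and 18555, 19857 and 18194 in Senexin B (log2 fold change 0.01, adjusted p = 0.948). Of 8 tested interferon-inducible GTPase genes edgeR and DESeq2 both called 0, and 0 had an unadjusted p under 0.05 (median −0.15). Irgm1, the most abundant of them, had 1581, 2304 and 2653 counts in DMSO and 813, 2444 and 2118 in Senexin B (log2 fold change −0.28, adjusted p = 0.742).

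Host defence genes with a rise included Duox2, which produces hydrogen peroxide, and its partner Duoxa2. Duoxa2, the maturation factor (ENSMUSG00000027225, chromosome 2, 122298900 to 122302885), had 104, 102 and 105 counts in DMSO and 270.4, 311 and 309 in Senexin B, and its oxidase gene Duox2 had 390.3, 358 and 367 counts in DMSO and 685, 773 and 857 in Senexin B. Both were separated without overlap, with log2 fold changes of 1.52 (SE 0.11, adjusted p = 3.41e-06) and 1.05 (SE 0.10, adjusted p = 3.57e-05). They belong to a list of 24 tested NF-kB targets, of which 5 rose and 1 fell, with a median of 0.09. The rises were 8 without DMSO replicate 1, and the fall was 0 without DMSO replicate 2, Senexin B replicate 1, Senexin B replicate 2, Senexin B replicate 3 or both replicate 1 libraries as well as with at least 10 counts in every library. The acute phase gene Saa1 had 2.03, 0.976 and 3.98 counts in DMSO and 27.8, 28.4 and 31.7 in Senexin B. Tnfaip2, a gene induced by tumour necrosis factor, changed by 1.00 (SE 0.18, adjusted p = 0.00429) on the log2 scale. Of 9 antimicrobial lectins and enzymes the peptidoglycan-binding Pglyrp1 rose (0.34, SE 0.07, adjusted p = 0.0115; adjusted p = 0.0561 without Senexin B replicate 2) and 2 genes fell, with a median of −0.03. Reg1, a secreted lectin, changed by −0.51 (SE 0.15, adjusted p = 0.0487) on the log2 scale, with adjusted p = 0.0619 without DMSO replicate 1, 0.107 without DMSO replicate 2, 0.0956 without DMSO replicate 3, 0.0792 without Senexin B replicate 1, 0.189 without Senexin B replicate 2, 0.0887 without Senexin B replicate 3, 0.0874 without both replicate 1 libraries, 0.0508 with DESeq2 size factors and 0.0526 with at least 10 counts in every library. The rises were 0 without Senexin B replicate 2, and 2 with the replicate block, and the falls 1 without DMSO replicate 1, DMSO replicate 3, Senexin B replicate 1, Senexin B replicate 2 or both replicate 1 libraries as well as with DESeq2 size factors or at least 10 counts in every library, and 0 without Senexin B replicate 3.

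For 2 lists of stress responses the counts stand beside a share of 7.75% called among all genes. In the integrated stress response 1 of 28 genes rose, Nupr1, and 1 fell, the growth inhibitor gene Ddit4 (−0.41, SE 0.09, adjusted p = 0.011; adjusted p = 0.0658 without Senexin B replicate 2), with a median of −0.07. The rises were 2 with no filter, the replicate block or the block in the 16 h libraries alone, and the falls 6 without DMSO replicate 1, 0 without Senexin B replicate 2, 4 without both replicate 1 libraries, 3 with DESeq2 or no filter, and 2 with the replicate block or the block in the 16 h libraries alone. In the unfolded protein response 2 of 19 fell, with a median of −0.10, and the count was 4 without DMSO replicate 1, 1 without DMSO replicate 2, Senexin B replicate 2 or Senexin B replicate 3 as well as with no filter or the block in the 16 h libraries alone, and 0 without DMSO replicate 3 or Senexin B replicate 1 as well as with the 16 h libraries alone. Herpud1, a factor of protein degradation at the endoplasmic reticulum, changed by −0.35 (SE 0.08, adjusted p = 0.0131) on the log2 scale, with adjusted p = 0.0507 without DMSO replicate 2, 0.0548 without DMSO replicate 3, 0.0622 without Senexin B replicate 1 and 0.0668 with the 16 h libraries alone. Xbp1, a transcription factor of this response, changed by −0.21 (SE 0.06, adjusted p = 0.028) on the log2 scale, with adjusted p = 0.0899 without DMSO replicate 3, 0.0729 without Senexin B replicate 1, 0.103 without Senexin B replicate 2, 0.102 without Senexin B replicate 3, 0.0527 without both replicate 1 libraries, 0.127 with the 16 h libraries alone, 0.102 with no filter and 0.0765 with the block in the 16 h libraries alone. Of 11 tested genes of the mitochondrial genome edgeR and DESeq2 called 0, with 2 at an unadjusted p under 0.05, and the median was 0.14. mt-Co1, a subunit of cytochrome c oxidase and the most abundant of these, had 581634, 600937 and 646732 counts in DMSO and 654617, 661447 and 648820 in Senexin B (log2 fold change 0.10, adjusted p = 0.451).

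**Figure D4:**
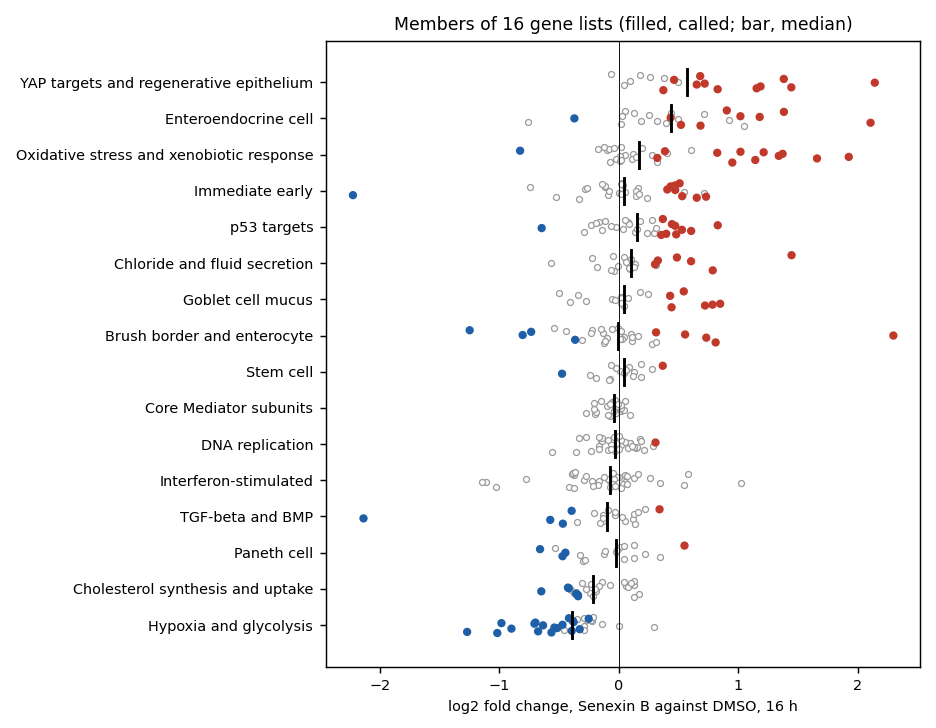
Log2 fold change at 16 h of each tested member of 16 gene lists, filled where called (red higher, blue lower), with a bar at the median of each list. The medians run from −0.39 for hypoxia and glycolysis to 0.57 for YAP targets and regenerative epithelium.

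The response at 16 h was set beside that at 24 h, which has DMSO controls of its own. At 24 h 2293 genes were higher (14.8%) and 1959 lower (12.7%). Of the 674 genes higher at 16 h, 525 were higher at 24 h (77.9%, and 22.9% of the 24 h list), and of the 524 lower genes 411 were lower (78.4%, and 21% of that list). The difference between the times, tested gene by gene in the same edgeR model, gave 0 calls of 15467 (0%), with 1995 at an unadjusted p under 0.05, 66 by DESeq2 and 325 (2.1%) with the replicate block. It gave 7 without DMSO replicate 1 and 1 without DMSO replicate 2. Hypoxia and glycolysis genes were lower in 27 of 30 cases at 24 h, with a median of −0.53, and 1 of them differed between the times with the block. DNA replication genes were higher in 23 of 38 cases at 24 h, and 9 differed with the block. The log2 fold change of Egr1 was −2.30 at 24 h.

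Double knockout organoids were prepared in a different experiment with other controls and unstranded libraries, so values stand side by side and the difference was not tested. The second-strand column was used there too, and 63.12 to 65.21% of the reads of that experiment were not counted on a gene. In that comparison 1468 of 15602 genes were higher (9.41%) and 1232 lower (7.9%). Among the 14261 genes tested in both, 162 of the 641 genes higher with Senexin B were higher in the double knockout (25.3%, and 11.8% of its 1373), while 43 were lower. Of the 514 genes lower with Senexin B, 52 were lower (10.1%, and 4.4% of its 1182) and 80 higher. Egr1 had a log2 fold change of −2.19 in the double knockout and −2.22 with Senexin B at 16 h, and Lgr5 −1.23 and −0.47. Cftr had −0.62, not called, and 0.10. The paper reports lower Cftr RNA and a loss of CFTR protein in double knockout organoids. Muc2 had 1.36 and 0.08, and Lyz1 2.13 and −0.53. Hypoxia and glycolysis genes gave 1 higher call of 30 in the double knockout against 18 lower calls with Senexin B, and brush border and enterocyte genes 23 higher of 31 against 5 higher and 4 lower.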

How the data were processed

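The authors deposited STAR ReadsPerGene tables, which hold read counts per gene (STAR 2.6.0c per the submitters' processing notes, single-end reads of 50 bases, GRCm38.p6, Ensembl release 93). The column of the second strand was used, and 22.66 to 25.12% of the reads at 16 h were not counted on a gene of that strand. Gene names and positions came from GENCODE vM21, which named 54079 of the 54146 genes. Libraries were scaled with TMM factors, genes were filtered with filterByExpr, and 15467 genes were tested in a model with a mean for each of the 4 groups of the 12 inhibitor libraries.

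Each comparison used the quasi-likelihood F test of edgeR 4.0.16 with limma 3.58.1 in R 4.3.3, as a contrast of 2 groups of 3 libraries in the fit of all 12, and Benjamini-Hochberg adjustment with calls at an adjusted p under 0.05. DESeq2 1.42.0 served as the second tool. Tables and figures were made in Python 3.11.15 with pandas 2.3.3 and matplotlib 3.10.9. No library was a copy of another.

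Numbers were taken to pair the libraries where all same-number correlations, after removal of the group means, were above 0.1. This held at 16 h (0.303, 0.101 and 0.110; other pairs at most 0.154), narrowly for replicates 2 and 3, and at 24 h (0.377, 0.137 and 0.187; others at most 0.147). On a second scale the 16 h values were 0.443, 0.181 and 0.185 (others at most 0.258). The pairing comes from the values and not from the labels. The study's methods state no block, so the model has none, and the blocked fit is an alternative. List counts under this and the other alternatives are given only where they differ from the main count by more than a ratio of 1.5. Smaller changes are not given beside the results. With the block, for example, hypoxia and glycolysis falls went from 18 to 25 and xenobiotic response rises from 11 to 15. All genes called at 24 h went from 4252 to 5872.

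Alternatives were DESeq2 size factors, the DESeq2 test, no filter, at least 10 counts in every library, the 16 h libraries alone, the replicate block with 12 or 6 libraries, unstranded counts, and 6 fits that each left out a library. A fit without both replicate 1 libraries was added after the values had been seen, as were the lists of iron handling, actin and contractile genes, keratins, cytochrome P450 genes and glucuronosyl and sulfotransferases. The other 42 of 47 lists were fixed earlier. Members and lists were chosen with earlier results of these data known.

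Named genes were the kinases and cyclin C, genes that the study names for mucus, Cftr or cell types, the 12 largest rises and 12 largest falls of called protein-coding genes whose groups do not overlap and which average 50 or more normalised counts, and up to 4 called members of each list with the smallest p, or its most abundant member. Results of a few items withheld for evaluation are left out. Further genes named are members of the lists and were picked with the results known.

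Several limits apply. Each group has 3 libraries, and calls depend on them, as the fits with a library left out show. The tables do not say whether the same number means a shared culture. The dose is known from the paper's text alone, and the labels do not settle the RNA selection or the tamoxifen exposure. Reads of 50 bases cannot separate close paralogs. The 24 h libraries have other controls, and the double knockout was prepared differently. RNA levels say nothing about protein or kinase activity.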

Additional observations from a re-analysis of the deposited data

Results flagged for a closer look

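With the replicate block, the Senexin B effect of the following named genes differed between 24 h and 16 h, given here as the log2 fold change at 24 h minus that at 16 h. The effect was larger at 24 h by 1.4018 for Lct (lactase) and by 1.0955 for Hsd17b6 (a steroid dehydrogenase), both of which were higher at 16 h. The difference was −0.668 for Upk3b (a uroplakin) and −0.5039 for Slc11a2 (the iron transporter), both of which were lower at 16 h. For Nox1 (a superoxide-producing oxidase), also lower at 16 h, it was 1.6927. Without the block none of them differed between the times.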

How the results depend on the processing

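Of the 1198 genes called at 16 h, 674 were higher and 524 lower. With the 16 h libraries alone 725 were called, 425 higher and 300 lower, and with the replicate block 2338, 1209 higher and 1129 lower. Leaving out 1 library gave between 657 (without Senexin B replicate 2) and 1819 (without DMSO replicate 1). The higher genes then ran from 418 (without Senexin B replicate 3) to 990 and the lower genes from 235 to 829. DESeq2 called 827 higher and 678 lower. Beyond 2-fold, 215 genes became 127 with at least 10 counts in every library, 10 with glmTreat (a log2 fold change of 1 as the null) and 161 to 276 without a library.

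The difference between 24 h and 16 h, 0 genes with edgeR, was 66 with DESeq2, 121 without a filter, 325 with the replicate block, 24 without both replicate 1 libraries and 0 to 7 without a library. The replicate block changed the call of no named gene other than those given beside the results. Of 139 named genes 115 were called and 79 of them in every alternative, and no direction was reversed. DESeq2 did not call Alox5ap and Slc10a2, and the 16 h libraries alone ended the calls of 18 named genes.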
